A study of Mus musculus and Homo sapiens with 12 samples.

Results

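A set of 10 genes of the Notch pathway were examined in 12 CUT&Tag peak lists that map butyrylated or acetylated lysines on histone tails in human colon cells and mouse large intestine. The genes were the receptors NOTCH1, NOTCH2 and NOTCH3, the ligands DLL1, DLL4, JAG1 and JAG2, the DNA-binding factor RBPJ, the coactivator MAML2 and the target HES1, chosen by name from 20033 protein-coding genes of the human annotation, with the mouse genes of the same names among 21883. In CUT&Tag an antibody brings a transposase to the marked chromatin, and the fragments it cuts out are sequenced and called as peaks. CCD841, a cell line from normal human colon, was given 1 mM sodium butyrate for 12 to 16 h. It was profiled for butyrylation of lysine 18 of histone H3 (H3K18bu) and lysine 12 of histone H4 (H4K12bu). Each of these marks had 2 libraries, with no untreated cells or acetyl libraries among those analysed. The mouse libraries came from the large intestine of male CETP-ApoB-100 transgenic mice, a strain carrying human genes of lipoprotein metabolism. Those for H3K18bu and H4K12bu, together called Kbu, came from mice on a high fat, high sucrose diet with 5% arabinoxylan, a fermentable fibre. Those for acetylation of the same residues (H3K18ac and H4K12ac, together Kac) are labelled with the high fat, high sucrose diet alone. The paper's methods differ from this label. They describe a low fat control group and a high fat, high sucrose group later given arabinoxylan, and no group kept on the latter diet alone. Each mouse mark had 2 libraries as well, and since acyl group and diet change together in the labels, their contributions cannot be told apart.

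Notch signalling passes between touching cells. A Delta-like or Jagged ligand on one cell binds a Notch receptor on its neighbour, the receptor is cleaved, and its intracellular part enters the nucleus, joins RBPJ and a Mastermind-like coactivator such as MAML2 and switches on targets such as HES1. In the intestine the pathway keeps crypt progenitors dividing and favours absorptive over secretory cells. Acetyl and butyryl groups on histone lysines are found at active promoters and enhancers, and butyrate, made by gut bacteria from fibre, is a source of the butyryl group as well as an inhibitor of histone deacetylases.

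Peaks were counted as merged regions over each gene plus 5 kb on either side, and a shared region was one where regions of both replicates of a mark overlapped by at least 1 bp. The pileup of a region is the number of reads stacked on its summit, worked out from its fold and p-value. The 4 CCD841 lists held 299296 to 299720 peaks, which merged to 211088 and 229104 regions for H3K18bu and to 207129 and 282656 for H4K12bu. All 4 thus ended at the limit of 300000, and their weakest peaks had a −log10 p of 5.31 and 4.56 for H3K18bu and of 4.81 and 2.97 for H4K12bu, so counts are compared between lists that stop at different p-values. Replicate 2 of H4K12bu stood apart, with a median pileup of 7 where the other 3 libraries had 12 to 15, and a q-value under 0.05 in 54.7% of its regions against 100% in the others. The mouse lists were far thinner. A pileup of 1 read carried 89.2% to 91.4% of peaks in the 4 Kbu libraries, which listed 50675 to 96432 peaks, and 12.8% to 72.1% of those in the 4 Kac libraries, which listed 299623 to 299861 and so ended at the same limit. No read totals were used here, so levels between libraries were not scaled to depth.

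Some sequence windows at these genes in CCD841 are shown before the counts, none of them from JAG1 or MAML2. They are 300 bases of GRCh38, plus strand, centred on the summit of the strongest shared H3K18bu region of NOTCH2, JAG2 and RBPJ, followed by the 250 bases before the start of HES1, where no library had a region. Capitals mark TGGGAA, the core recognised by RBPJ, or its reverse complement TTCCCA, and TGANTCA, the motif of the AP-1 factors, which reads the same on both strands. The positions are chr1:120090799-120091098 for NOTCH2, chr14:105162385-105162684 for JAG2, chr4:26197218-26197517 for RBPJ and chr3:194135898-194136147 for HES1, all intronic except the last, which lies upstream.
NOTCH2: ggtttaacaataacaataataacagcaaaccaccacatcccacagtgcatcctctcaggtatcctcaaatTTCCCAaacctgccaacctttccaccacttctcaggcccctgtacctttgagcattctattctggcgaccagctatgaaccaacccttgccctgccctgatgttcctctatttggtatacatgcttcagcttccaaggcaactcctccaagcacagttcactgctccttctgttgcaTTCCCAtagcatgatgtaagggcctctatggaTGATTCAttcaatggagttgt
JAG2: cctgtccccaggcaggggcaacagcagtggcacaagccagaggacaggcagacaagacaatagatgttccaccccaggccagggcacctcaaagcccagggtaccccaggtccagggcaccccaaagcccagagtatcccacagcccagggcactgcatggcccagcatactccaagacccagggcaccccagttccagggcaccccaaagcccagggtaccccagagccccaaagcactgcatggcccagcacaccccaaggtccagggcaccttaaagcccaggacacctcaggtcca
RBPJ: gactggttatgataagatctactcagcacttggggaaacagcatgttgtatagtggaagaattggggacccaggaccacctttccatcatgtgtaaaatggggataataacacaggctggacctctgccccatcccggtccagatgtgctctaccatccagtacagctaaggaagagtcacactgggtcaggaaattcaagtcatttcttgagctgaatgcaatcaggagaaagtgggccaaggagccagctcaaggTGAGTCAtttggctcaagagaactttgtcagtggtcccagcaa
HES1: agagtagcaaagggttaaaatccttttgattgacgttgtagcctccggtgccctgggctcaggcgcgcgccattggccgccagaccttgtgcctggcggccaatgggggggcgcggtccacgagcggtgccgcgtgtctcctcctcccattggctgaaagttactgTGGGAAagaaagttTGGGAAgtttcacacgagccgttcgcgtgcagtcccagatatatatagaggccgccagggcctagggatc
The HES1 stretch holds TGGGAA 2 times close together, and the NOTCH2 window holds it 2 times, both as the reverse complement, beside 1 AP-1 motif. The RBPJ window holds 1 AP-1 motif and no TGGGAA. The JAG2 window has neither, and repeats the short string GCCCAG 7 times. A match is a description of the letters and not a binding site.

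In CCD841 cells the ligand JAG1 and the coactivator MAML2 were densely covered by shared regions of both butyrylation marks and the ligand JAG2 by those of H3K18bu, while DLL4 and HES1 had no region that both replicates of a mark shared. Shared H3K18bu regions were found at 8 of the 10 genes, beside 70% of all protein-coding genes, and shared H4K12bu regions at 7, beside 71.2%. Neither share departs far from the background. The number of shared regions was 112 for H3K18bu and 103 for H4K12bu, with a median of 4.5 and 6.5 a gene against 1 and 2 over all genes. Since several of these genes are long, the density is the fairer measure, and its median was 0.54 H3K18bu and 0.60 H4K12bu regions per 10 kb against 0.37 and 0.47 over all genes. Of the 103 H4K12bu regions, 79 had a q-value under 0.05 in both replicates, while in H3K18bu every listed region of the genome had one.

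**Figure D1:**
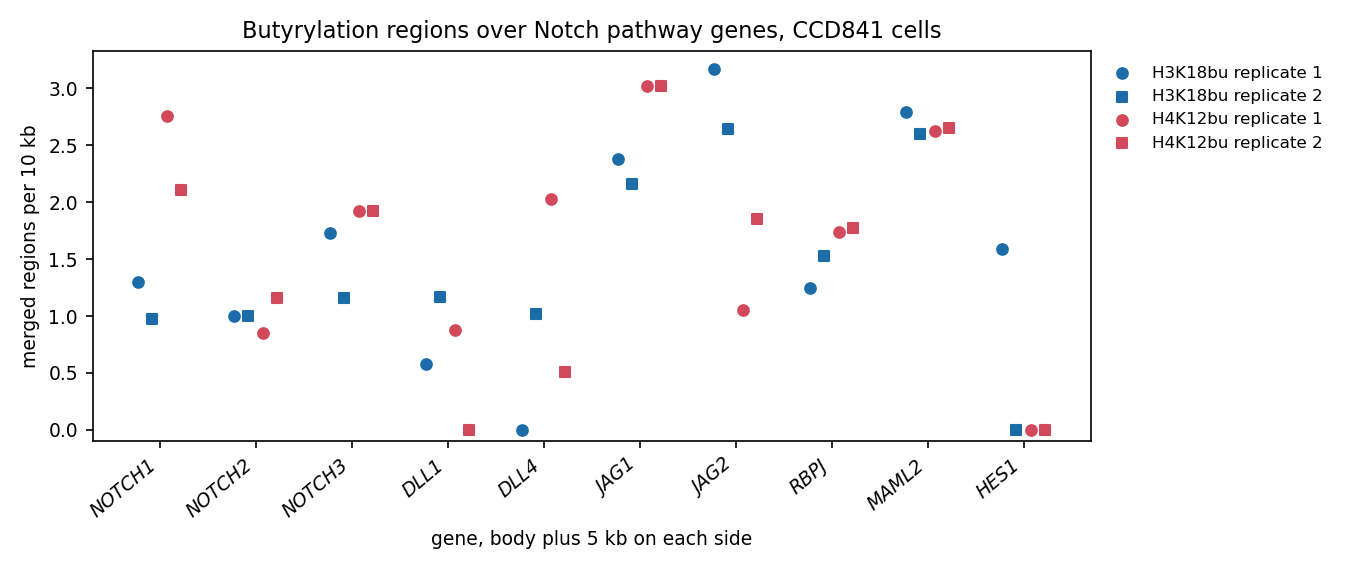
Merged regions per 10 kb (vertical axis) over each gene plus 5 kb on either side (horizontal axis) in CCD841; colour gives the mark and symbol the replicate, with 1 point per library. JAG2 is highest in the H3K18bu libraries at 3.17 and 2.64, and HES1 is at 0 in 3 of the 4 libraries.

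Among the receptors, NOTCH1 had 8 and 6 regions in the H3K18bu libraries and 17 and 13 in the H4K12bu libraries. The H4K12bu values lay above both H3K18bu values. Shared regions numbered 3 and 6, and at 2 places all 4 libraries had a region. At the one 4.77 kb upstream of the gene, the pileups were 17 and 19 reads in the H3K18bu libraries and 19 and 8 in the H4K12bu libraries. H4K12bu alone had shared regions over exons towards the 3′ end of the gene, with pileups of 57 and 17 at chr9:136507636-136507976.

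NOTCH2 had 20 and 20 H3K18bu regions and 17 and 23 H4K12bu regions, so the marks overlapped. Its strongest region, chr1:120090463-120091170, is in an intron 9.83 kb from the 5′ end of the longest gene model and had pileups of 51 and 42 reads in the H3K18bu libraries and 28 and 6 in the H4K12bu libraries. NOTCH2 has near-identical partial copies elsewhere on chromosome 1, and reads that fit several copies may be placed wrongly, so its values are uncertain.

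NOTCH3 had 9 and 6 H3K18bu regions and 10 and 10 H4K12bu regions. The replicates of H3K18bu coincided at 1 place, an intronic region with pileups of 13 and 13. Those of H4K12bu coincided at 7, of which the strongest, chr19:15191788-15192593, had pileups of 26 and 12. No place in NOTCH3 was found in all 4 libraries.

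Of the ligands, JAG1 had 11 and 10 H3K18bu regions and 14 and 14 H4K12bu regions, and JAG2 had 12 and 10 against 4 and 7. The libraries of the 2 marks did not overlap at either gene, with H3K18bu below at JAG1, as at 41.3% of all genes, and above at JAG2, as at 15%. Counted per 100000 merged regions of the library, those of JAG1 overlapped, with 5.21 and 4.36 for H3K18bu against 6.76 and 4.95 for H4K12bu. Per 10 kb, shared H3K18bu regions were denser at JAG2 (2.11) than at 98.9% of protein-coding genes, and shared H4K12bu regions were denser at JAG1 (1.94) than at 97.3%. JAG1 had 5 places found in all 4 libraries, from 7.67 to 29.4 kb into the gene. From the nearest of 9 annotated transcript starts they lay 1.82, 1.17, 2.29, 0.864 and −3.58 kb away, with minus for upstream. JAG2 had 1, chr14:105162418-105164075, with pileups of 71 and 49 reads in the H3K18bu libraries and 46 and 15 in those of H4K12bu, the highest of the 60 places found in all 4 libraries except in the last, where MAML2 reached 16. Its local background was high too, at 11.4 and 8.04 reads in the H3K18bu libraries, against 2.85 and 2.46 at the strongest NOTCH2 region. The fold over that background was 5.79 and 5.53 at JAG2 and 13.5 and 12.4 at NOTCH2, so the highest pileup was not the highest enrichment. The JAG2 place lies over the repeated string shown above, where read placement was not checked. An unnamed RNA gene, ENSG00000257622, overlaps it. Another 3 shared H3K18bu regions lay 2.71 to 3.94 kb upstream of JAG2.

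The Delta-like ligands had few regions by count, in windows of 34.4 kb for DLL1 and 19.7 kb for DLL4. DLL1 had 2 and 4 H3K18bu regions and 3 and 0 H4K12bu regions. Both shared H3K18bu regions were well supported, with pileups of 14 and 14 at the start site and 24 and 16 over an exon 21.02 kb into the gene. The density of shared H3K18bu regions at DLL1, 0.58 per 10 kb, was above that of 64.9% of protein-coding genes. DLL4 had 0 and 2 H3K18bu regions and 4 and 1 H4K12bu regions, and none was shared.

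RBPJ, which carries the complex to DNA, had 35 and 43 H3K18bu regions and 49 and 50 H4K12bu regions, of which 17 and 19 were shared. Regions of all 4 libraries met at 10 places in its 281.7 kb window. The strongest, the intronic chr4:26197106-26197943, is 34 kb from the nearest of 43 annotated transcript starts, and its pileups were 37 and 25 reads in the H3K18bu libraries and 32 and 8 in the H4K12bu libraries. Within 1 kb of the gene's 5′ end, the outermost of these 43 starts, the pileups were 27 and 12 and then 17 and 6, in the same order. The 250 bases before this 5′ end had a GC content of 34.4%, against a median of 69.2% over the members. Whether this start is used in CCD841 was not tested.

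MAML2, the coactivator, had 105 and 98 H3K18bu regions and 99 and 100 H4K12bu regions, the most of any member, in a window of 376.6 kb. Shared regions numbered 65 and 52. Their density, 1.73 and 1.38 per 10 kb in the order H3K18bu and H4K12bu, was above that of 97.2% and 90% of protein-coding genes. All 4 libraries had a region at 38 places, and 1 of these was at the start, with pileups of 15, 21, 15 and 5 reads in the order H3K18bu replicates 1 and 2 and H4K12bu replicates 1 and 2.

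HES1, the target gene, had few regions by count in these cells, in the shortest window of the members, 12.6 kb. Replicate 1 of H3K18bu had 2 regions in its window, or 1.59 per 10 kb, the stronger 5.76 kb downstream of the start with a pileup of 11. The other 3 libraries had 0. A gene without a shared region was not rare, as 30% of protein-coding genes had none for H3K18bu and 28.8% none for H4K12bu. Its upstream stretch with both TGGGAA motifs therefore held no listed region in any of the 4 libraries. A list of this kind cannot show that the mark is absent there.

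**Figure D2:**
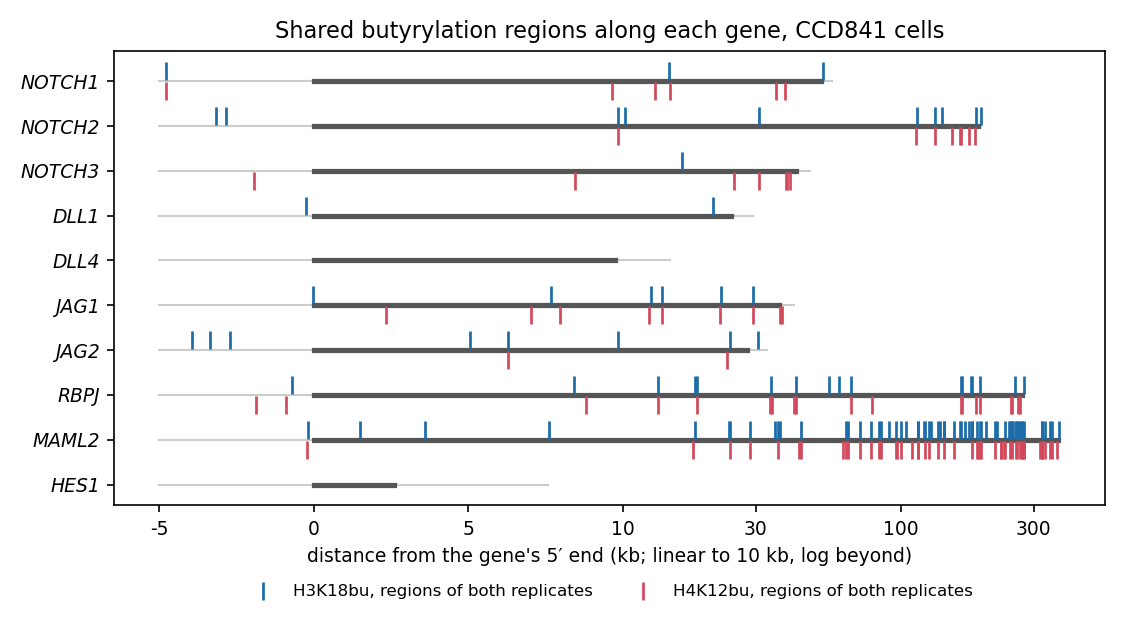
Position of each shared region (vertical tick) by its distance in kb from the gene's 5′ end, on an axis that is linear to 10 kb and logarithmic beyond; dark bars are genes and thin lines the 5 kb flanks. The ticks of both marks lie mainly inside genes, and DLL4 and HES1 have none.

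By place, 88 of the 112 shared H3K18bu regions and 80 of the 103 shared H4K12bu regions were intronic. MAML2 held 61 of these 88 and 50 of these 80. Other exons held 9 and 16, the start sites 4 and 2, the upstream flanks 6 and 3 and the downstream flanks 5 and 2. Part of the flanks belongs to neighbours, FAM120B at DLL1, SLX4IP at JAG1 and NUDT14 at JAG2. Within 1 kb of the gene's 5′ end, both H3K18bu replicates had a region at DLL1, JAG1, RBPJ and MAML2, 4 of 10 genes beside 32.7% of all genes, and both H4K12bu replicates at RBPJ and MAML2, 2 of 10 beside 16.3%. JAG1 had start-site pileups of 15 and 11 for H3K18bu, no region in replicate 1 of H4K12bu and a pileup of 5 in replicate 2.

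In CCD841 the marks often met at the same places. Of the H3K18bu regions over these genes, 57.1% overlapped a shared H4K12bu region, and 63.1% of the H4K12bu regions overlapped a shared H3K18bu region, where the shares over the windows of all genes were 40.9% and 39.4%. MAML2 held most of these regions, and without it, a setting chosen after the values had been seen, the shares were 51.1% of 47 and 49% of 51. All 4 libraries had a region at 60 places, 38 of them at MAML2 and 51 intronic, with median pileups of 21 and 19.5 for H3K18bu and 19 and 8 for H4K12bu. When counts of merged regions were set side by side, both H3K18bu libraries lay below both H4K12bu libraries at NOTCH1, NOTCH3, JAG1 and RBPJ, 4 of 10 genes beside 41.3% of all genes, and above them at JAG2, 1 of 10 beside 15%. Counted per 100000 merged regions of the library, the genes below were NOTCH1 alone, 1 of 10 beside 41.7%, and the genes above NOTCH2 and JAG2, 2 of 10 beside 20%. NOTCH1 and JAG2 thus kept their direction on both scales. With 2 libraries a mark, the smallest p-value an exact test can give is 1 in 3, so none was made.

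**Figure D3:**
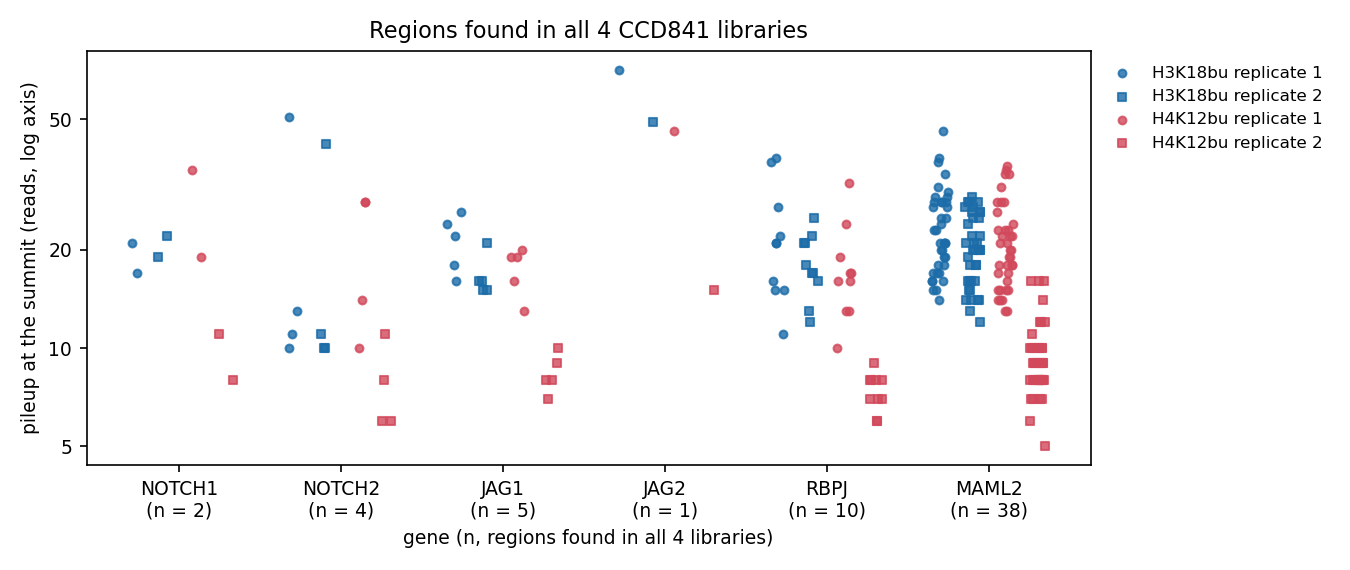
Pileup in reads (log axis) at each place where all 4 CCD841 libraries had a region, by gene; colour gives the mark and symbol the replicate, and n is the number of places. Replicate 2 of H4K12bu lies at 5 to 16 reads, mostly under the other libraries, which span 10 to 71.

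The shared regions held the RBPJ core about as often as shared regions elsewhere. TGGGAA stood in 25% of the 112 H3K18bu windows and 31.1% of the 103 H4K12bu windows, against 27.3% and 25.5% of all shared regions of the same length. The AP-1 motif TGANTCA stood in 17.9% and 19.4%, against 15.2% and 11.9%. Median GC content was 48.3% and 49%, against 51% and 51.7%. MAML2 supplied 65 of the 112 windows and 52 of the 103, so these values lean on that gene. Motif shares and GC content without MAML2 were not calculated. In the 250 bases before the start, NOTCH2 and HES1 held TGGGAA, 2 of 10 members, as did 20.7% of all protein-coding genes.

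In mouse large intestine the Kbu lists held little over these genes. Shared regions were found for H3K18bu at Notch1, Notch2 and Hes1, 3 of 10 genes beside 17.7% of all genes, and for H4K12bu at Notch1, Dll1 and Maml2, 3 of 10 beside 29.7%. All 7 of these Kbu regions rested on a pileup of 1 read in at least 1 replicate, and none had a q-value under 0.05 in both. For acetylation, shared regions were found at 8 of 10 genes for H3K18ac, beside 52.2%, and at 7 for H4K12ac, beside 55.1%, with 21 and 23 regions in all, of which 1 and 4 had a q-value under 0.05 in both replicates.

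Hes1 was the member with the most shared H3K18bu regions, 2, but both lay in the flanks, and with the gene body alone 2 members had a shared H3K18bu region and Hes1 did not. It had 3 and 4 regions in the H3K18bu libraries and 0 and 2 in the H4K12bu libraries. In the flank 4.78 kb outside the gene, at chr16:30060426-30060787 of GRCm38, 6 of the 8 libraries had a region, with pileups of 4 and 1 for H3K18bu, 2 in H4K12bu replicate 2, 8 in H3K18ac replicate 1 and 2 and 3 for H4K12ac. A place inside the gene, not shared by the H3K18bu libraries, at chr16:30066491-30067249, had pileups of 6 and 4 for H3K18ac, 2 in H4K12ac replicate 1, 2 in H3K18bu replicate 2 and 1 in H4K12bu replicate 2. Over all members, 0 of the 4 shared H3K18bu regions overlapped a shared H3K18ac region, beside 45.2% over the windows of all genes, and 33.3% of the 3 H4K12bu regions overlapped a shared H4K12ac region, beside 36%. Between the acetyl marks, 14.3% of H3K18ac and 13% of H4K12ac regions overlapped one of the other mark, beside 22.8% and 22.6%. The human HES1 gene had regions in 1 library of 4, but species, sample and pileups all differ, and read depth was not compared.

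Maml2 had 13 and 8 regions in the H3K18bu libraries and 12 and 32 in the H4K12bu libraries, and acetylation gave 71 and 36 on H3K18 and 40 and 59 on H4K12. Its start, chr9:13296529-13296865, was listed in 6 libraries, with pileups of 3 and 3 for H3K18ac, 3 and 5 for H4K12ac and 1 and 1 for H4K12bu. A region 118 kb into the gene had 5 and 4 for H3K18ac and 3 and 6 for H4K12ac. Among the ligands, Dll4 had 6 and 4 reads for H3K18ac at chr2:119329133-119329661, 3.56 kb into the gene, and Dll1 had 2 and 5 for H4K12ac near its start. Jag2 had no region in 3 of the 4 Kbu libraries.

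Within 1 kb of a start, for the 9 mouse genes with a known start, both replicates had a region at 0 genes in H3K18bu and 4 in H4K12bu, and acetylation gave 4 on H3K18 and 3 on H4K12, where the shares of all genes were 11.7%, 23.9%, 35.5% and 39%. Maml2 was among them for H4K12bu, H3K18ac and H4K12ac. In H4K12bu the 4 were Dll1, Jag1, Rbpj and Maml2, each with a pileup of 1 in replicate 1 and with no q-value under 0.05, and at Jag1 and Rbpj the regions of the replicates lay within 1 kb of the start without overlapping.

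To compare Kbu with Kac in spite of the unequal lists, the 50645 strongest regions of each library were taken, with ties ordered at random. The Kbu libraries had 50645 to 96332 merged regions and the Kac libraries 297745 to 299480. The cut thus kept Kbu regions of 1 read beside only the stronger Kac regions, and the lists still stop at unlike p-values. The 4 Kbu and the 4 Kac libraries then overlapped at all 10 genes. Over all 21883 genes, 0.343% had every Kbu library below every Kac library and 0.48% had the opposite. Notch1 had 4, 3, 6 and 4 regions in the Kbu libraries and 4, 1, 1 and 0 in the Kac libraries, with means of 4.25 ± 1.26 and 1.5 ± 1.73 (SD, n = 4 each, two-sided exact permutation test, p = 0.114, adjusted p = 1). Jag2 had 0 in all 4 Kbu libraries and 3, 1, 0 and 2 in the Kac libraries (exact p = 0.143, adjusted p = 1). Maml2 had 13, 8, 12 and 14 against 11, 14, 7 and 14, a difference of 0.25 regions (exact p = 1). With this test 0 of the 21883 genes passed an adjusted p of 0.05, 180 had an unadjusted exact p under 0.05, and none of the 10 members did. The smallest p that 4 against 4 libraries allow is 0.0286, and the 180 genes that reached it were too few for any to pass after adjustment over all genes.

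**Figure D4:**
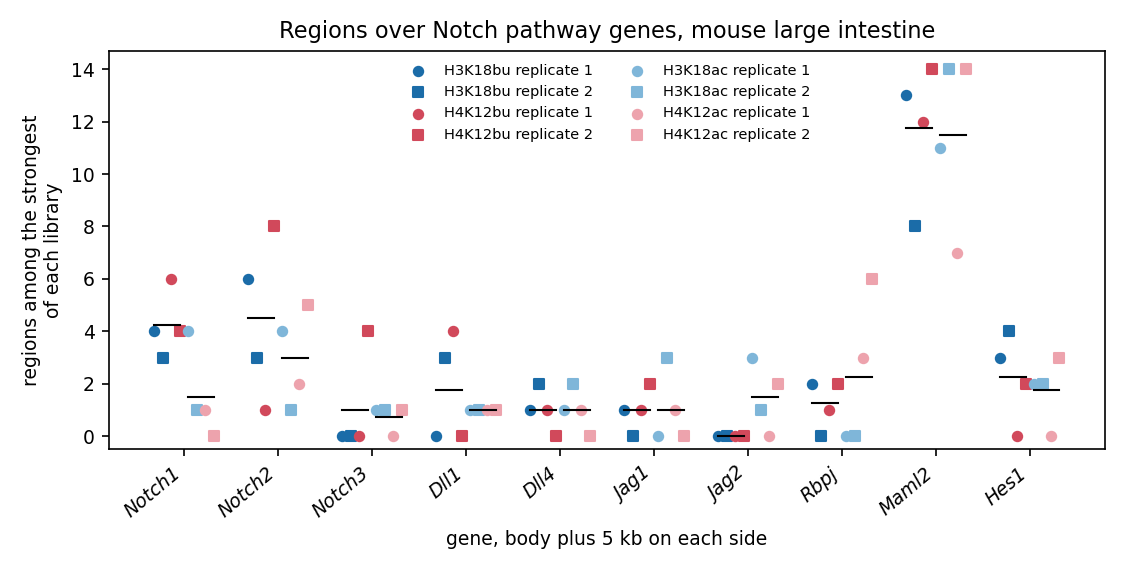
Number of regions over each mouse gene plus 5 kb (vertical axis) among the 50645 strongest of each library; colour gives the mark, symbol the replicate and black bars the means of the 4 Kbu and the 4 Kac libraries. The groups overlap at every gene, and Maml2 spans 7 to 14.

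Other genes of the pathway, 53 in the human list, were read next. Shared regions were found in CCD841 at 32 of them for H3K18bu, or 60.4% beside 70% of all genes, and at 37 for H4K12bu, or 69.8% beside 71.2%. These shares are near or under the background. Nuclear cofactors had shared regions at 8 of 11 genes for H3K18bu and at all 11 for H4K12bu. Genes that turn over ligand and receptor had 9 and 10 of 11, and the proteases and other enzymes that process the receptor had 6 and 8 of 9. The enzymes that add sugars to the receptor had 3 and 4 of 5, and the other receptors and ligands 2 and 1 of 4. Further targets, the HES and HEY genes and NRARP, had 2 of 9 for each mark, beside the same 70% and 71.2% of all genes, and the difference was not tested. A longer window has more room for a region, and gene length was not matched between these lists or with all genes. These counts therefore cannot rank the lists. At the start site the strongest H3K18bu regions were those of NUMB, an inhibitor of Notch receptors, with pileups of 19 and 18, EP300, a histone acetyltransferase, with 19 and 16, and FBXW7, which marks the receptor for degradation, with 29 and 17. For H4K12bu they were EP300 (12 and 8), NUMB (19 and 8) and ADAM17, a protease that can cut the receptor (11 and 7). ATOH1, which directs secretory cells and is repressed by the pathway, was the only listed gene without a region in any CCD841 library. Of the 4 intestinal genes downstream of the pathway, 2 had a shared H3K18bu region and 1 a shared H4K12bu region.

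Of 52 pathway genes found in the mouse annotation, 10 had a shared H3K18bu region (19.2%, beside 17.7% of all genes) and 16 a shared H4K12bu region (30.8%, beside 29.7%). Acetylation gave 31 on H3K18 (59.6%, beside 52.2%) and 32 on H4K12 (61.5%, beside 55.1%), so all 4 shares lay close to those of all genes. The strongest were Numb (2 and 2 reads) and then Maml3 (1 and 1) and Crebbp (3 and 1), level by p-value, for H3K18bu, Crebbp (2 and 4) and Dtx4 (2 and 2) for H4K12bu, Pofut1 (6 and 6) and Ep300 (4 and 4) for H3K18ac and Fbxw7 (4 and 5) and Aph1b (5 and 5) for H4K12ac. All 52 had a region in at least 1 mouse library.

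Marker genes were read as a check of the tissue. In mouse H3K18bu, 8 of 10 epithelial markers had a shared region, among them Cdx2, Vil1 and Lgals4, and 0 of 10 fibroblast, 0 of 5 smooth muscle, 0 of 4 endothelial and 0 of 3 neural markers did, with Itgam alone of 6 immune markers. Ranked by the p-value of the weaker replicate, the strongest of these shared regions had pileups of 2 and 3 at Cdx2 and 3 and 2 at Krt8. At Vil1, Elf3, Cdh17, Lgals4, Cdh1 and Epcam, as at Itgam, it rested on 1 read in at least 1 replicate. The mouse check is therefore a weak one. In CCD841 the epithelial markers did not stand out. Shared H3K18bu regions stood at 8 of 10 epithelial, 9 of 10 fibroblast and mesenchymal and 6 of 6 immune markers, beside 70% of all genes. Both H3K18bu replicates had a region at the start of 1 epithelial and 4 fibroblast markers, beside 32.7% of all genes. For H4K12bu these starts numbered 2 and 1, beside 16.3%. Shared H3K18bu regions numbered 33 over the epithelial and 31 over the fibroblast markers, and shared H4K12bu regions 13 and 43. Of those 43, COL6A3 held 14 and FN1 held 13. No shared H4K12bu region stood at CDH1, CDH17, CDX2, ELF3 and KRT20, or at COL1A1, COL3A1 and TWIST1. KRT8 had 7. For H3K18bu the counts for smooth muscle were 4 of 5, for endothelium 3 of 4 and for neural markers 0 of 3. Those of H4K12bu over all 6 lists were 5 epithelial, 7 fibroblast, 3 immune, 5 smooth muscle, 3 endothelial and 1 neural. Over all genes the H4K12bu share was 71.2%. In mouse H4K12bu, epithelial markers had 4 of 10, fibroblast markers 2 of 10 and endothelial markers 1 of 4, with 0 elsewhere. The Kac lists, which gave a shared region at 52.2% and 55.1% of all genes against 17.7% and 29.7% for Kbu, had shared regions at 9 and 5 of 10 epithelial, 3 and 5 of 10 fibroblast, 3 and 3 of 5 smooth muscle, 3 and 3 of 6 immune, 4 and 1 of 4 endothelial and 0 and 1 of 3 neural markers for H3K18ac and H4K12ac. The part of other cell types in the mouse values was not tested.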

How the data were processed

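CUT&Tag libraries of CCD841 cells and mouse large intestine were analysed as the peak lists the authors deposited, 1 per library. Per the submitters' processing notes, bcl2fastq 2.17.1, cutadapt 1.9.1, Bowtie2 2.3.1 and MACS2 2.1.0 were used with hg38 and mm10. Per the file names, peaks passed p 0.01, with at most 300000 a library. The deposited lists give, for each peak, the fold ratio over local background and −log10 p and −log10 q values. Replicates were not pooled, no control was subtracted, and replicates are separate libraries whose animals or cultures the labels do not name, so spread may be technical.

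Overlapping peaks were merged, and pileups were solved from fold and p within 0.01 of the listed −log10 p. Genes came from GENCODE 44 (GRCh38) and RefSeq (GRCm38.p6), mouse starts from the RefSeq promoter table and the gene's 5′ end, added after the peaks had been seen. Hes1 had no strand there, and NEURL1 was matched to mouse Neurl1a by its synonym. A region over a gene plus 5 kb was placed at the start (1 kb), other exon, intron or flank. Mouse counts were tested with exact permutation (two-sided, 70 assignments), Benjamini-Hochberg adjusted over 21883 genes, with Python 3 and scipy, checked on simulated data. The sequence and position of 1 region are not reported here. Members and lists were chosen with earlier results of these data known. Named pathway genes were the 3 (CCD841, start sites) or 2 (mouse, shared regions) with the highest lower-replicate −log10 p per mark, and those with no region. Alternatives were q-value and pileup minima, windows, overlap, list scaling and left-out replicates.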

Additional observations from a re-analysis of the deposited data

How the results depend on the processing

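In CCD841 the number of members with a shared region stayed within 1.5 times under each alternative run, but the pileup minimum for both marks and the q-value of 0.05 for H3K18bu removed no listed region and so could not change it. For H4K12bu start sites, the 2 members became 4 with a window of 3 kb, 6 with the start of any annotated transcript and 1 with a q-value under 0.05. The mouse counts depended on the setting. With a q-value under 0.05 in both replicates, members with a shared region numbered 0 for H3K18bu, 0 for H4K12bu, 1 for H3K18ac and 1 for H4K12ac, and with 0.01 they numbered 0, 0, 1 and 0. A pileup of at least 2 left 0 for H3K18bu and 0 for H4K12bu. Counting a region in either replicate, an alternative chosen after seeing the data, gave 8 for H3K18bu and 10 for H4K12bu, and leaving out 1 replicate gave 6 to 7 for H3K18bu and 7 to 10 for H4K12bu. Members whose Kbu and Kac libraries did not overlap numbered 1 (Notch1, Kbu higher) with all listed regions per 100000, where 10.4% of all genes had that direction, and 1 (Maml2, Kbu lower) with regions of q-value under 0.05 per 1000 such regions, where 7.70% did. Leaving out single libraries gave 0 to 1, with Notch1 higher without H3K18ac replicate 1, as were 1.11% of all genes, and Jag2 lower without H4K12ac replicate 1, as were 0.813%. With the replicate number as a block, 0 members reached the smallest p of 36 assignments, 0.0556. Whether the replicate numbers pair the samples is not given by the labels. The correlation of replicate differences between groups was −0.0656 to 0.0293 over genes. That cannot settle it, since most mouse Kbu peaks rest on 1 read and real pairing could be lost in such counts. Of 77 such alternative values, 23 moved by more than 1.5 times, as did 17 of 30 for the numbers of shared regions. The latter include all that rest on 1 replicate, where no sharing is asked: 199 to 204 regions in place of 112 for H3K18bu and 217 to 218 in place of 103 for H4K12bu in CCD841, and in the mouse 23 to 40 in place of 4, 26 to 86 in place of 3, 106 to 179 in place of 21 and 103 to 165 in place of 23 for H3K18bu, H4K12bu, H3K18ac and H4K12ac. Low pileups limit the mouse Kbu lists. The depth of each library in reads is unknown, as the paper gives only an average.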
